A study of Mus musculus with 34 samples.

Results

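The adipokines described here are 9 genes, *Adipoq*, *Lep*, *Retn*, *Cfd*, *Rarres2*, *Nampt*, *Rbp4*, *Agt*, and *Apln*, of 23109 genes with values in 14 RNA-Seq libraries. They were taken as a fixed list of symbols, and each was represented by the RefSeq transcript with the highest mean level over the 14 libraries. All libraries came from brown preadipocytes, the precursors of brown fat cells, that had been immortalized with SV40T. By the labels, the cells are on a C57BL/6J background, carry floxed alleles of GR (the glucocorticoid receptor), and received retroviral Vec or Cre, with no statement of which of these a given library received, so GR status is unknown for each library compared. The methods of the study describe cells from newborn WT mice instead. The first experiment had cells with retroviral WT or K36M mutant histone H3.3 on days 0, 2, and 7 of adipogenesis, called D0, D2, and D7 (6 libraries). The second (4 libraries) had WT and K36M cells that also carried retroviral PPARγ and were given DMSO or the PPARγ ligand rosiglitazone (Rosi). The labels give a time of 0 for DMSO and 24 h for Rosi, whereas the study describes sub-confluent cells treated with DMSO or Rosi for 24 h. The third had cells with a lentiviral Ctrl shRNA or an *Nsd2* KD shRNA at D0 and D2 (4 libraries). D2 and D7 libraries followed an inducing mix of insulin, T3, IBMX, dexamethasone, and indomethacin. By the methods, only insulin and T3 of these stayed in the medium after D2. From D2 to D7, time and loss of the other inducers therefore cannot be told apart. There was 1 library per condition, so no difference below has a replicate check. Going by the labels alone, ligand and time cannot be told apart in the second experiment.

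Adipokines are proteins that fat cells secrete into the blood or their surroundings, where they act on appetite, insulin response, vessels, and immune cells. Adiponectin, leptin, resistin, and adipsin are made by mature fat cells, whereas visfatin, angiotensinogen, and others also come from further cell types. H3.3K36M is a mutant histone that lowers methylation of lysine 36 of histone H3, and Nsd2 is an enzyme that places dimethylation there. The comparisons asked how adipokine transcripts followed adipogenesis and a PPARγ ligand, and how they differed with the mutant histone or with less Nsd2.

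Levels are RPKM, which are read numbers scaled for transcript length and for library depth. Differences are log2 ratios of RPKM between 2 libraries, with a 95% counting interval in parentheses from the whole reads behind the values. A gene was called at a ratio over 2-fold, and comparisons that share a library are not independent. These intervals hold counting error alone, so they set one library against another and say nothing of how conditions vary. On NCBIM37, which is mm9, the annotation places *Adipoq* (RefSeq NM_009605) on chromosome 16 from 23146609 to 23158101, *Lep* (NM_008493) on chromosome 6 from 29010220 to 29023877, *Retn* (NM_001204959) on chromosome 8 from 3655770 to 3660110, and *Cfd* (NM_013459) on chromosome 10 from 79353598 to 79355401. *Rarres2* (NM_027852) lies on chromosome 6 from 48519697 to 48522669, *Nampt* (NM_021524) on chromosome 12 from 33505200 to 33538234, and *Rbp4* (NM_011255) on chromosome 19 from 38191110 to 38199811. *Agt* (NM_007428) lies on chromosome 8 from 127080434 to 127093606 and *Apln* (NM_013912) on chromosome X from 45378323 to 45388030. These spans run from the first to the last exon, with UTRs and introns included.

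The stretches just before the start sites are shown for *Adipoq*, *Retn*, *Cfd*, *Rbp4*, and *Agt*, whose levels in K36M cells stood over 2-fold below those of WT cells both at D7 and with Rosi. Each is the 250 bases before a RefSeq start in GRCm38.p6, read 5′ to 3′ on the strand of the gene. The regions are chr16:23146286-23146535 on the plus strand for *Adipoq*, chr8:3655520-3655769 on the plus strand for *Retn*, and chr10:79890603-79890852 on the plus strand for *Cfd*. On the minus strand they are chr19:38124812-38125061 for *Rbp4*, the downstream one of its 2 listed starts, since the stretch before the upstream start held none of the motifs searched, and chr8:124569707-124569956 for *Agt*. Capitals mark TTGCNNAA, which resembles the C/EBP motif, and TATAAA, the core element found near many start sites, each matched on either strand. The TTGCNNAA match in *Rbp4* is on the other strand, so its capitals show the reverse complement. The *Adipoq*, *Retn*, and *Cfd* stretches hold neither.
Adipoq: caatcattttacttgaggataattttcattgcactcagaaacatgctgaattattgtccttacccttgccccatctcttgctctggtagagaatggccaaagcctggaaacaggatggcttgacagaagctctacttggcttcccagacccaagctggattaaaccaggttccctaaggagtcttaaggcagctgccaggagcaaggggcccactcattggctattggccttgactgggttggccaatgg
Retn: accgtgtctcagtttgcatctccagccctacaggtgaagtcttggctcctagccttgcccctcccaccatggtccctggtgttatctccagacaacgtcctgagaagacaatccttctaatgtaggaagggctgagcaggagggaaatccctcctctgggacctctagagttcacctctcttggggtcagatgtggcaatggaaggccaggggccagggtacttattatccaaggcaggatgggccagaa
Cfd: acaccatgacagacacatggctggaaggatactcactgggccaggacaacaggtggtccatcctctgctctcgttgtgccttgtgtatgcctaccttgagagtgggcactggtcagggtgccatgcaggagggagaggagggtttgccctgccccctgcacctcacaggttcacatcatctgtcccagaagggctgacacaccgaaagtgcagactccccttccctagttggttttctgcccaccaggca
Rbp4: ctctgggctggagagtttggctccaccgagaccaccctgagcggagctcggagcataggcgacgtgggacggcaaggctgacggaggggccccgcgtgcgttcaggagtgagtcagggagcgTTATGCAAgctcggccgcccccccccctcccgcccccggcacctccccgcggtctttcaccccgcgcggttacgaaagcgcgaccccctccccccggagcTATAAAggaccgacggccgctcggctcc
Agt: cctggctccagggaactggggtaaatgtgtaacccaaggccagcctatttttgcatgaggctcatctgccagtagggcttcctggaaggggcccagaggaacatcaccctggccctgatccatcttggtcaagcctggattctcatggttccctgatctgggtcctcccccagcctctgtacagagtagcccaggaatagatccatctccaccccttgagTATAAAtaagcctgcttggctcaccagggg
Start regions were matched for 8 of the 9 genes, all but *Rarres2*. *Rbp4* had 2 regions and counted if either held a match, whereas the shares of all below are per region. Searched on both strands, TTGCNNAA was present before *Rbp4* and *Lep* and in 9.56% of all 32851 start regions of the same length. TATAAA stood before *Agt* and *Rbp4* and in 12.4% of all. AGGTCA, the nuclear receptor core motif, was present only before *Nampt* among the 8 genes and in 14% of all. TGTTCT and CACGTG had no match before any of the 8, against 16.1% and 6.02% of all. These are matches of letters in a short window and not binding sites, and the only overlap was in *Lep*, where TTGCNNAA was matched on both strands at the same bases.

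The libraries held between 12213559 and 24365867 mapped reads, as inferred from the RPKM values. *Nsd2*, the target of the shRNA, stood at 5.85 RPKM with the *Nsd2* shRNA against 19.9 RPKM without it at D0, and at 7.01 against 29.0 RPKM at D2. *Pparg* stood between 42.6 and 71.8 RPKM in the 4 libraries of cells with retroviral PPARγ. *Nr3c1*, the gene of GR, ranged from 10.1 RPKM in K36M cells with PPARγ and DMSO to 30.9 RPKM in WT cells at D0. WT and K36M cells had 17.7 and 17.6 RPKM of it at D2, and 23.3 and 24.2 RPKM at D7. With Rosi they had 21.3 and 13.7 RPKM. Whether these levels follow Vec or Cre was not tested. The summed RPKM of 8 adipocyte markers (*Fabp4*, *Plin1*, *Cidec*, *Cd36*, *Lipe*, *Pnpla2*, *Gpd1*, and *Dgat2*) was 77.2, 3971, and 4101 in the WT libraries of D0, D2, and D7, and 47.0, 1697, and 239.8 in those of K36M. In WT cells with PPARγ it was 142 under DMSO and 3170.1 under Rosi, and in K36M cells with PPARγ 88.6 and 1259. In Ctrl cells it was 25.6 at D0 and 1574 at D2, and in KD cells 15.2 and 75.7. The brown fat markers were low throughout, since *Ucp1* stayed at or below 0.194 RPKM and had 0 reads in 9 libraries, *Cidea* and *Dio2* stayed at or below 0.097 and 0.054 RPKM, and none of the 6 brown markers exceeded 7.38 RPKM. Each of the lists of macrophage or leukocyte, endothelial, muscle, and hepatocyte markers had a summed level of at most 4.00 RPKM in any library. The marker levels are set beside the comparisons below, and their part in the adipokine differences was not tested. In these bulk libraries, fewer fat cells and less RNA per fat cell cannot be told apart.

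Together the 9 adipokines had a summed RPKM of 95.1, 273, and 951 in the D0, D2, and D7 libraries of WT cells. The K36M sums were 41.2, 189, and 147. The WT sum was therefore highest at D7 and the K36M sum highest at D2. With ectopic PPARγ, the WT sum was 34.8 with DMSO and 434 with Rosi, and the K36M sum 17.6 and 58.2. It was 28.4 and 71.8 at D0 and D2 in Ctrl cells, and 10.3 and 25.4 in KD cells. The gene that led the sum changed with the condition. *Agt* led in 6 libraries, among them WT cells at D0 and D2, and made up 64.8% of the sum in WT cells at D2. *Nampt* led in 6 others, among them K36M cells at D0 and D7 and KD cells on both days, and made up 78.6% of the sum in K36M cells at D0. *Adipoq* led in WT cells at D7 with 30.1%, and *Rarres2* in K36M cells with PPARγ and Rosi with 36.4%. Of the 9 genes, 7 had their highest level in WT cells at D7, and the exceptions were *Agt*, highest in WT cells with PPARγ and Rosi, and *Apln*, highest in WT cells at D2.

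**Figure D1:**
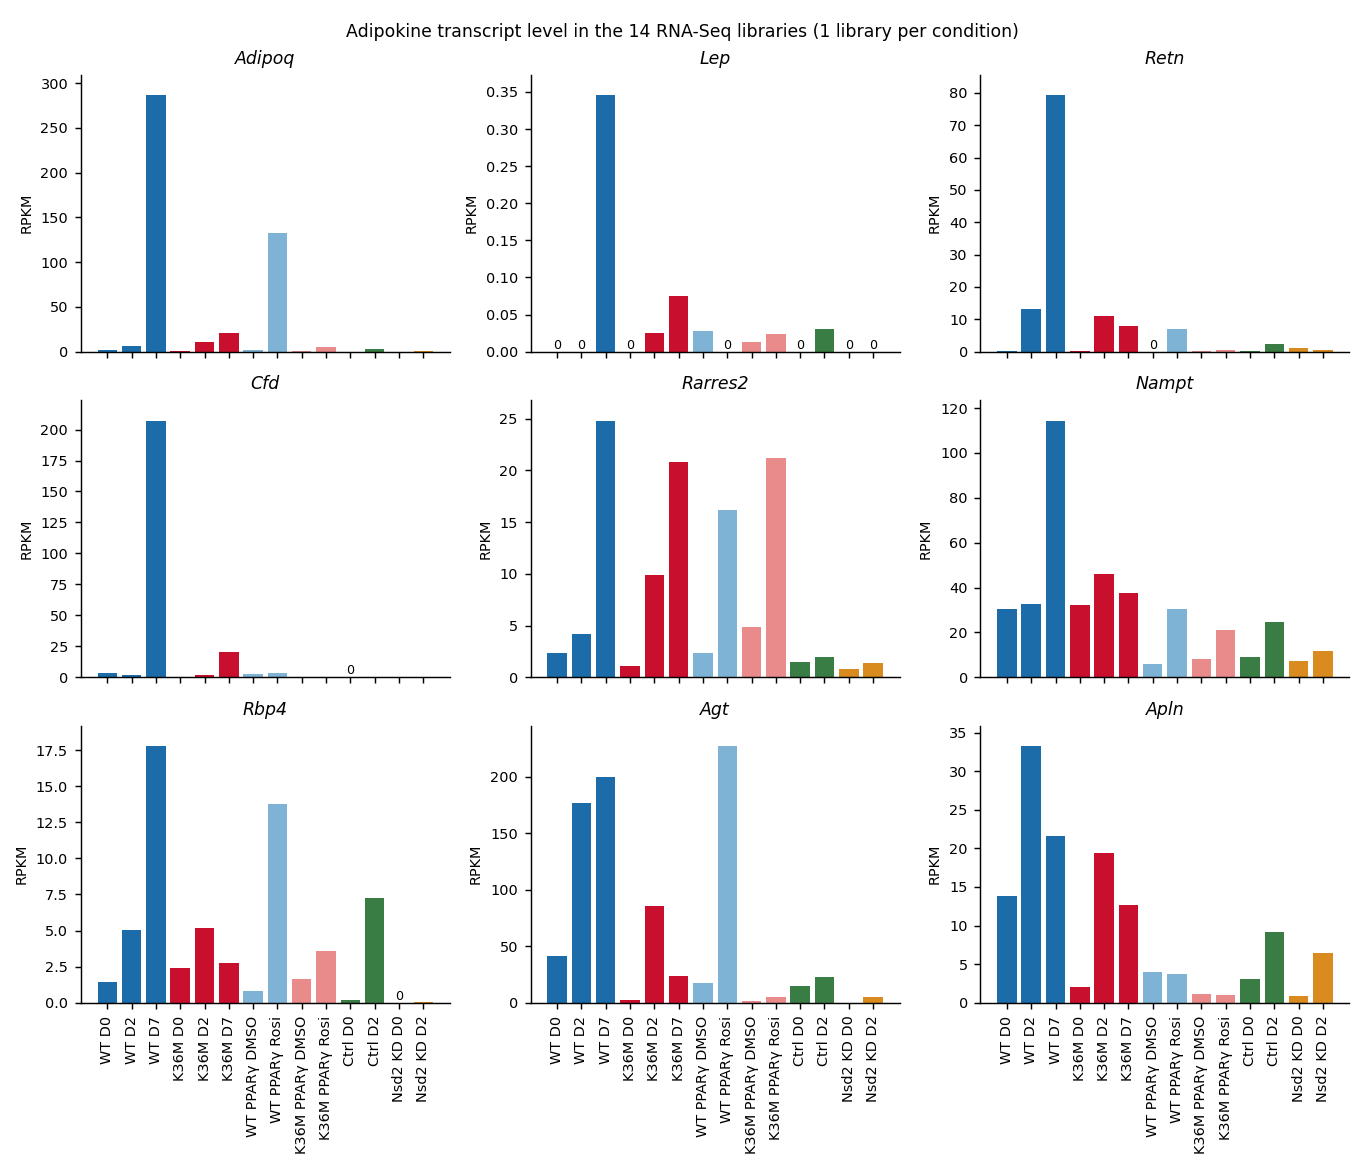
RPKM (linear axis from 0, a scale per gene) of the 9 adipokine transcripts in each of the 14 libraries, 1 bar per library, with 0 printed where no read was found. The WT D7 bar is the tallest for 7 genes, the *Rarres2* bars of WT and K36M cells are close to each other at D7 and with Rosi, and the *Lep* bars outside that library reach at most 0.0754 RPKM.

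*Adipoq* encodes adiponectin, the insulin-sensitizing hormone made by mature fat cells. The WT libraries of D0, D2, and D7 held 1.56, 6.16, and 287 RPKM, and the K36M libraries 0.286, 10.6, and 21.0 RPKM. The K36M library was the lower one at D0 and D7 but the higher one at D2. With PPARγ, the DMSO and Rosi levels were 1.46 and 132 RPKM in WT cells, and 0.400 and 5.64 RPKM in K36M cells. Ctrl cells had 0.0411 RPKM at D0 and 3.42 RPKM at D2, and KD cells 0.0931 and 0.184 RPKM. Adiponectin transcript was thus near the detection limit in KD cells on both days, with 2 and 4 reads.

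*Lep* encodes leptin, the satiety hormone of white fat. It had 0 reads in 7 of the 14 libraries and never reached 1 RPKM. The highest value was 0.346 RPKM (15 reads) in WT cells at D7, and K36M cells at that time had 0.0754 RPKM (3 reads). The other libraries had at most 2 reads, and a library with 0 reads allows up to 3 reads, which is 0.0431 to 0.0557 RPKM. Leptin differences outside D7 were not detectable at this depth.

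*Retn* encodes resistin, a cysteine-rich hormone of mouse fat cells. It was nearly absent at D0 in both histone lines, with 0.0803 RPKM in WT and 0.0865 RPKM in K36M cells, 1 read each. At D2 it stood at 13.2 and 11.0 RPKM, and at D7 at 79.3 RPKM in WT and 8.02 RPKM in K36M cells. The interval of the ratio between the lines held 1 at D2 but not at D7. With PPARγ, WT cells had 0 reads with DMSO and 6.85 RPKM with Rosi, and K36M cells 0.0705 and 0.543 RPKM. Ctrl cells had 0.174 and 2.22 RPKM at D0 and D2, and KD cells had 1.18 and 0.584 RPKM. *Retn* is 1 of 2 genes here with another deposited transcript, and summing both changed no count of calls.

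*Cfd* encodes adipsin, the complement factor D protease secreted by fat cells. WT cells had 3.70, 1.64, and 207 RPKM on D0, D2, and D7, so the level went down before it went up. K36M cells had 0.109, 1.47, and 20.5 RPKM. In PPARγ cells, the DMSO and Rosi libraries held 2.34 and 3.41 RPKM for WT and 0.356 and 0.428 RPKM for K36M. There was no call for the ligand in either line, but the K36M values rested on only 8 and 5 reads. In the shRNA lines *Cfd* was at most 0.215 RPKM, which was 4 reads in Ctrl cells at D2.

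*Rarres2* encodes chemerin, a chemoattractant that is activated outside the cell by proteases. In WT cells it had 2.38, 4.21, and 24.8 RPKM at D0, D2, and D7, and in K36M cells 1.07, 9.92, and 20.8 RPKM. With PPARγ, WT cells had 2.34 RPKM with DMSO and 16.1 RPKM with Rosi, and K36M cells 4.81 and 21.2 RPKM. The K36M library was the higher one in 3 of 5 pairs, at D2 and with DMSO or Rosi. Ctrl cells had 1.50 and 1.96 RPKM at D0 and D2, and KD cells 0.810 and 1.36 RPKM.

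*Nampt* encodes visfatin, which is also the enzyme that makes nicotinamide mononucleotide for NAD synthesis in nearly every cell type. It was above 6 RPKM in all 14 libraries. WT cells had 30.5, 32.4, and 114 RPKM at D0, D2, and D7, and K36M cells had 32.4, 46.0, and 37.7 RPKM. With PPARγ, WT cells stood at 6.05 RPKM with DMSO and 30.6 RPKM with Rosi, and K36M cells at 8.04 and 20.9 RPKM. Only the D7 pair put the K36M library over 2-fold below the WT library. Ctrl cells had 8.87 RPKM at D0 and 24.5 RPKM at D2, and KD cells 7.04 and 11.6 RPKM.

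*Rbp4* encodes retinol binding protein 4, the blood carrier of vitamin A. WT cells had 1.41, 5.07, and 17.8 RPKM at D0, D2, and D7, and K36M cells 2.38, 5.15, and 2.73 RPKM. The PPARγ cells with WT histone held 0.791 RPKM under DMSO and 13.8 RPKM under Rosi, and those with K36M 1.63 and 3.57 RPKM. The WT library ended higher at D7 and with Rosi although the K36M library started higher at D0 and with DMSO. Ctrl cells had 0.163 RPKM at D0 and 7.26 RPKM at D2, whereas KD cells had 0 reads at D0 and 1 read at D2. The 2 deposited transcripts of *Rbp4* overlap, so how their reads were divided is uncertain.

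*Agt* encodes angiotensinogen, the precursor of angiotensin II, which raises blood pressure. WT cells had 41.7, 177, and 199 RPKM at D0, D2, and D7, and K36M cells 2.88, 85.7, and 23.3 RPKM. With PPARγ, WT cells had 17.9 RPKM with DMSO and 227 RPKM with Rosi, and K36M cells 1.18 and 4.94 RPKM. *Agt* was the only one of the 9 genes over 2-fold lower in the K36M library in all 5 pairs. Ctrl cells had 14.6 and 23.0 RPKM at D0 and D2, and KD cells 0.250 and 5.08 RPKM, so the KD library was over 2-fold lower in both pairs as well.

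*Apln* encodes apelin, a peptide that acts on vessels and heart. WT cells had 13.9, 33.2, and 21.6 RPKM at D0, D2, and D7, and K36M cells 2.02, 19.4, and 12.7 RPKM. The peak was at D2 in both lines. With PPARγ, WT cells had 3.93 RPKM with DMSO and 3.78 RPKM with Rosi, and K36M cells 1.08 and 0.979 RPKM. Ctrl cells had 3.07 and 9.20 RPKM at D0 and D2, and KD cells 0.838 and 6.49 RPKM. The K36M library was the lower one for *Apln* in all 5 pairs, 3 of them over 2-fold, and the KD library was the lower one in both of its pairs.

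From D0 to D2 in WT cells, *Adipoq*, *Retn*, *Rbp4*, *Agt*, and *Apln* were over 2-fold higher, which was 5 of the 8 adipokines with reads against 13.6% of all genes. *Cfd* was the 1 gene over 2-fold lower, against 25.2% of all genes. The log2 ratio was 2.08 (2.01 to 2.16) for *Agt*, 1.99 (1.48 to 2.52) for *Adipoq*, and 1.85 (1.22 to 2.51) for *Rbp4*. For *Retn* it was 7.36 (4.86 to 12.68), a wide interval since 1 read stood behind the D0 value. *Apln* had 1.26 (1.15 to 1.38) and *Cfd* -1.17 (-1.84 to -0.53). *Nampt*, at 0.09 (0.01 to 0.16), was almost level over the first 2 days. The median log2 ratio was 1.55 over the 8 adipokines with reads in both libraries and -0.04 over all genes, while the 8 adipocyte markers had a median of 6.29. The adipokines other than *Retn* therefore lay below the median of these markers over the first 2 days.

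From D2 to D7 in WT cells, 7 adipokines were over 2-fold higher, against 22.4% of all genes, and 0 were over 2-fold lower, against 12.2%. *Cfd* was 126 times as high at D7 as at D2, a log2 ratio of 6.98 (6.45 to 7.56). *Adipoq* was 46.5 times as high, a log2 ratio of 5.54 (5.30 to 5.79). These were the largest late differences among the 9 genes. *Retn* had a log2 ratio of 2.59 (2.32 to 2.85), *Rarres2* 2.56 (2.13 to 3.00), *Nampt* 1.82 (1.76 to 1.88), and *Rbp4* 1.81 (1.45 to 2.18). *Lep*, with 0 reads at D2, was at least 7.17-fold higher at D7 against a floor of 3 reads. *Agt* (0.17, 0.12 to 0.23) and *Apln* (-0.62, -0.74 to -0.51) were not called. The adipocyte markers had a median log2 ratio of 0.76 over the same days, against 2.19 for the 8 adipokines with reads in both libraries and 0.09 for all genes.

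In K36M cells, 8 of 9 adipokines were over 2-fold higher at D2 than before induction, against 16.5% of all genes, and 0 were over 2-fold lower, against 19.6%. *Nampt* was the exception, at 0.51 (0.43 to 0.58), and the call of *Lep* rested on 1 read. *Adipoq* had a log2 ratio of 5.21 (4.14 to 6.55), *Agt* 4.90 (4.61 to 5.20), and *Apln* 3.27 (2.99 to 3.55). *Rarres2*, which was under 2-fold in WT cells at 0.83 (0.20 to 1.47), had 3.22 (2.42 to 4.11) in K36M cells. *Cfd* had 3.75 (1.68 to 6.91), from 2 to 17 reads, *Retn* 6.99 (4.47 to 12.31), from 1 to 80 reads, and *Rbp4* 1.11 (0.53 to 1.71). The median was 3.51 over the 8 adipokines with reads in both libraries, 5.12 over the adipocyte markers, and -0.07 over all genes. From D2 to D7, 3 adipokines were over 2-fold higher in K36M cells, against 21.5% of all genes, and *Agt* was the 1 that was over 2-fold lower, against 14.9%. The 3 were *Cfd* (3.80, 3.09 to 4.61), *Rarres2* (1.07, 0.69 to 1.45), and *Lep*, from 1 to 3 reads with an interval of -2.02 to 7.34. *Agt* had -1.88 (-2.02 to -1.74). *Adipoq*, at 0.98 (0.71 to 1.26), lay just under the 2-fold limit, and *Rbp4* had -0.92 (-1.59 to -0.27). *Retn* (-0.45, -0.97 to 0.06), *Nampt* (-0.29, -0.37 to -0.20), and *Apln* (-0.61, -0.78 to -0.45) were not called either. The median over the adipokines was -0.29, over the adipocyte markers -1.31, and over all genes 0.06. Over the same days the summed RPKM of 5 preadipocyte markers (*Pdgfra*, *Pdgfrb*, *Ly6a*, *Dlk1*, and *Cd34*) went from 131 to 630.1 in K36M cells and from 56.0 to 289.8 in WT cells.

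**Figure D2:**
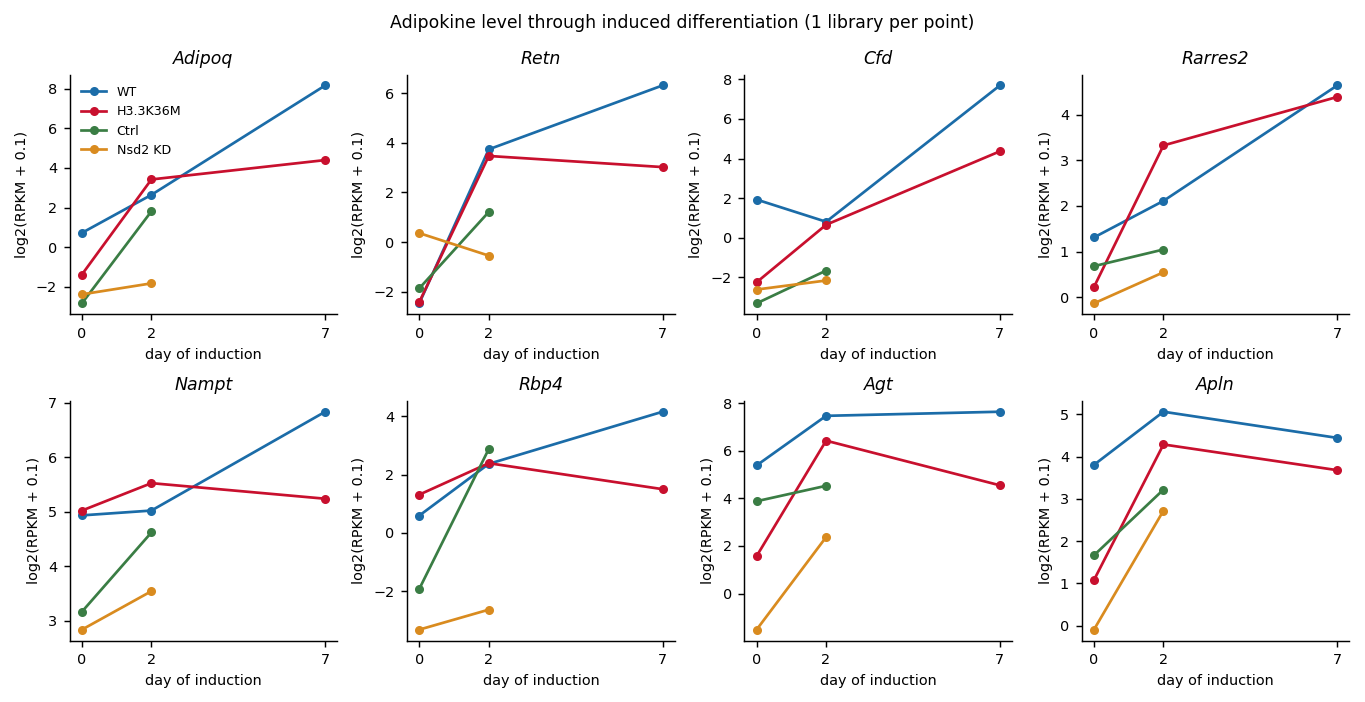
log2(RPKM + 0.1) of 8 adipokine transcripts (all but *Lep*) against the day of induction, with a line for each cell population and 1 library per point. *Adipoq*, *Retn*, *Nampt*, and *Rbp4* of WT and K36M cells lie near each other at D2 and apart at D7, while *Rarres2* meets at D7 and the KD line ends below the Ctrl line at D2 in all 8 panels.

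Before induction, 5 adipokines in K36M cells were over 2-fold below their WT levels at D0, against 12% of all genes, and 0 were over 2-fold higher, against 14.8%. *Cfd* was 33.9-fold lower with 2 against 73 reads, a log2 ratio of -5.08 (-8.16 to -3.18). *Agt* was 14.5-fold lower with 105 against 1639 reads, a log2 ratio of -3.86 (-4.16 to -3.57). *Apln* had -2.78 (-3.06 to -2.51), *Adipoq* -2.44 (-3.84 to -1.27), and *Rarres2* -1.16 (-2.13 to -0.25). These genes were lower before any inducer was added. *Nampt* (0.09, 0.01 to 0.16) and *Rbp4* (0.76, 0.04 to 1.50) were not called. The adipocyte markers had a median log2 ratio of -0.70 at D0, with 1 of 8 over 2-fold lower, against -1.80 for the 8 adipokines with reads in both libraries and 0.11 for all genes.

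At D2, *Agt* was the 1 adipokine over 2-fold lower in K36M cells, against 9.9% of all genes, at -1.04 (-1.12 to -0.97). Over 2-fold higher were *Rarres2*, at 1.24 (0.74 to 1.74), and *Lep*, with 1 read against 0, which was 2 genes against 22.2% of all genes. *Adipoq* was higher in K36M cells by less than 2-fold (0.79, 0.45 to 1.12), as was *Nampt* (0.51, 0.43 to 0.58). The intervals of *Retn* (-0.27, -0.68 to 0.13), *Cfd* (-0.16, -1.12 to 0.75), and *Rbp4* (0.02, -0.47 to 0.51) held 0. The median over the 8 adipokines with reads in both was -0.07, and over all genes 0.11. Of the 8 adipocyte markers, 7 were over 2-fold lower in K36M cells at the same time, with a median of -1.54, whereas *Agt* alone of the adipokines was.

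At D7, 7 adipokines were over 2-fold lower in K36M cells, against 13.2% of all genes, and 0 were over 2-fold higher, against 19.7%. *Adipoq* was 13.7-fold lower, a log2 ratio of -3.77 (-3.94 to -3.61). *Cfd* was 10.1-fold lower (-3.34, -3.54 to -3.14) and *Retn* 9.89-fold lower (-3.31, -3.72 to -2.91). *Agt* had -3.10 (-3.23 to -2.97), *Rbp4* -2.70 (-3.29 to -2.16), and *Nampt* -1.60 (-1.67 to -1.53). *Lep*, with 3 against 15 reads, had -2.20 (-4.63 to -0.38). Leptin was thus called on few reads, whereas each of the other 6 had at least 31 reads in the lower library. *Rarres2* (-0.25, -0.54 to 0.03) and *Apln* (-0.77, -0.93 to -0.61) were not called. All 8 adipocyte markers were over 2-fold lower at D7, with a median of -3.87, against -2.70 for the 9 adipokines and 0.13 for all genes. The summed level of the preadipocyte markers was 630.1 RPKM in K36M and 289.8 RPKM in WT cells. Of these 5 markers, 2 were over 2-fold higher and 0 over 2-fold lower in K36M cells, with a median of 0.84.

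**Figure D3:**
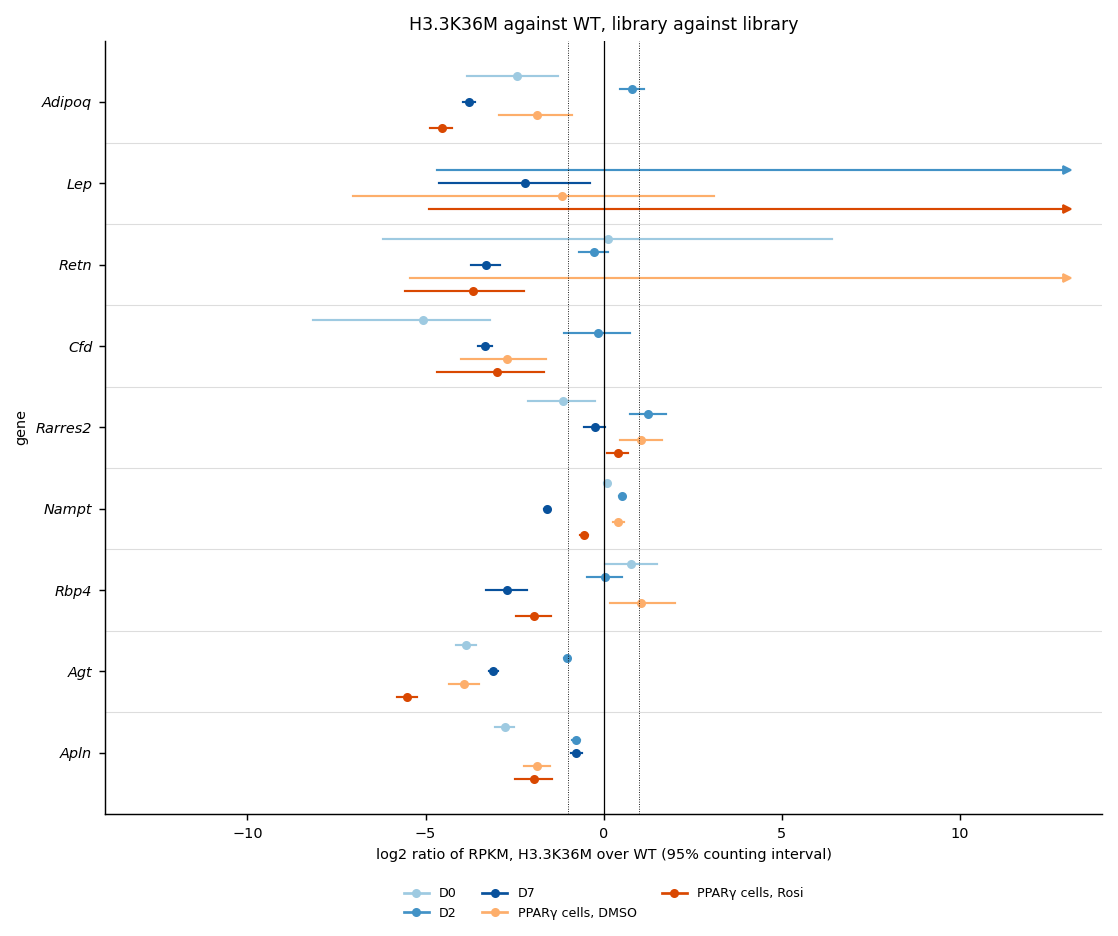
log2 ratio of RPKM, K36M over WT, for each adipokine at D0, D2, and D7 and in PPARγ cells with DMSO or Rosi (points, with lines for 95% counting intervals, arrows where a library had 0 reads, dotted lines at 2-fold). *Agt* lies left of the 2-fold line in all 5 pairs, *Adipoq* in 4, and *Rarres2* in 1.

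In WT cells with ectopic PPARγ, Rosi went with over 2-fold higher *Adipoq*, *Retn*, *Rarres2*, *Nampt*, *Rbp4*, and *Agt*, which was 6 of 9 adipokines against 17% of all genes. *Lep*, with 0 against 2 reads, was the 1 counted as over 2-fold lower, against 16.2% of all genes. *Adipoq* stood 91.0 times as high with Rosi as with DMSO, a log2 ratio of 6.51 (6.05 to 7.00). *Retn* had 66 reads with Rosi and 0 with DMSO and was at least 28.9-fold higher against a floor of 3 reads. *Rbp4* had 4.12 (3.39 to 4.96), *Agt* 3.67 (3.56 to 3.78), *Rarres2* 2.79 (2.27 to 3.34), and *Nampt* 2.34 (2.21 to 2.47). The intervals of *Cfd* (0.54, -0.06 to 1.14) and *Apln* (-0.05, -0.33 to 0.22) held 0. *Cfd* was thus among the 2 largest late differences of induced WT cells but was not called for 24 h of ligand. The median over the 7 adipokines with reads in both libraries was 2.79, over the adipocyte markers 4.53, and over all genes 0.09.

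In K36M cells with PPARγ, the same 6 genes were over 2-fold higher with Rosi, against 18.3% of all genes, and 0 were over 2-fold lower, against 15%. *Adipoq* had a log2 ratio of 3.82 (2.94 to 4.83), *Rarres2* 2.14 (1.76 to 2.53), and *Agt* 2.06 (1.58 to 2.56). *Nampt* had 1.38 (1.25 to 1.50) and *Rbp4* 1.13 (0.45 to 1.81). *Retn*, from 1 to 4 reads, had 2.94 (-0.39 to 8.57). The intervals of *Adipoq*, *Nampt*, *Rbp4*, and *Agt* lay below those of WT cells, and those of *Rarres2* overlapped, but with 1 library each the difference between the responses was not tested. The adipocyte markers had a median of 2.98, the adipokines 1.38, and all genes 0.06.

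**Figure D4:**
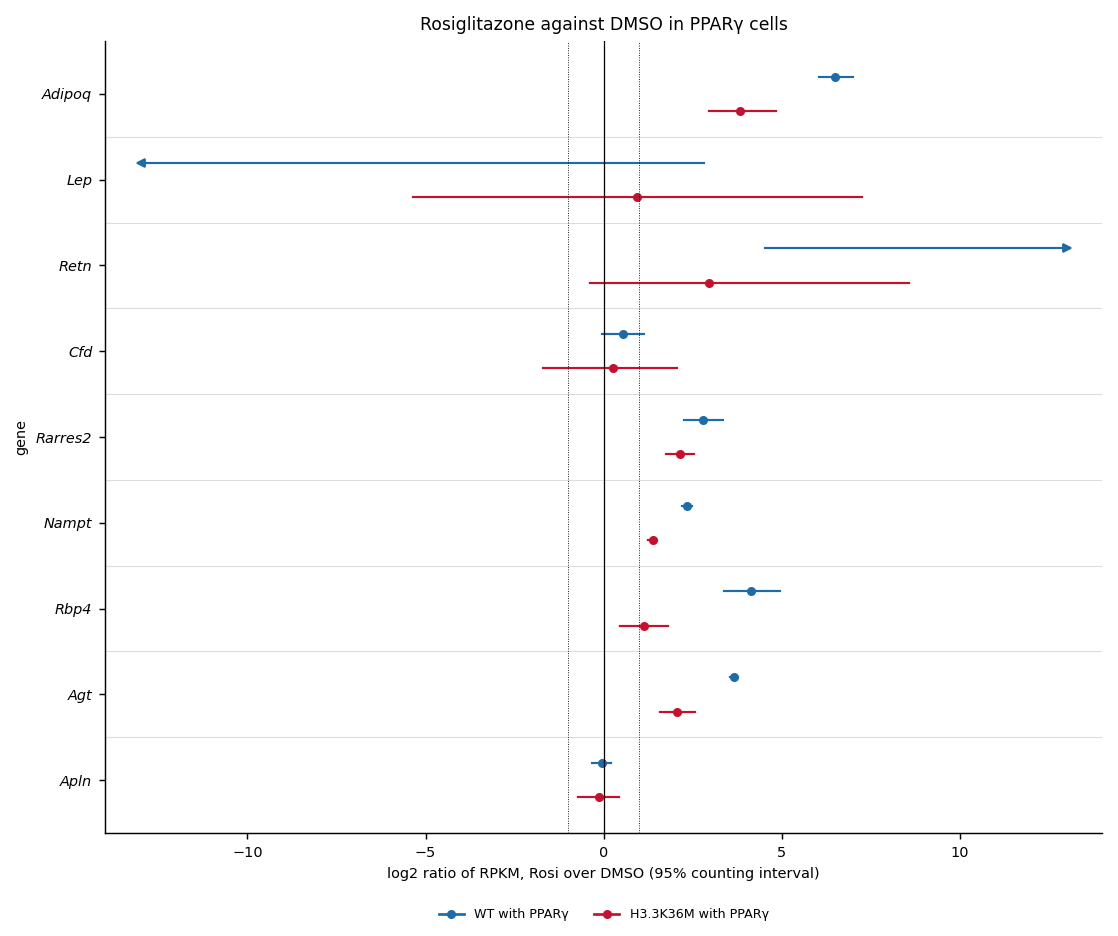
log2 ratio of RPKM, Rosi over DMSO, for each adipokine in WT and K36M cells with ectopic PPARγ (points, with lines for 95% counting intervals, arrows where a library had 0 reads, dotted lines at 2-fold). The WT point lies right of the K36M point for *Adipoq*, *Rbp4*, *Agt*, *Nampt*, and, with overlapping intervals, *Rarres2*. *Cfd* and *Apln* lie near 0 in both, and the K36M point of *Cfd* rests on 8 reads with DMSO and 5 with Rosi.

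Between the lines with PPARγ and DMSO, 5 adipokines were over 2-fold lower in K36M cells, against 8.31% of all genes, and 3 were over 2-fold higher, against 23.9%. *Agt* had -3.92 (-4.35 to -3.51), *Cfd* -2.72 (-4.01 to -1.62), *Adipoq* -1.86 (-2.93 to -0.90), and *Apln* -1.86 (-2.23 to -1.50). The fifth, *Lep*, rested on 1 against 2 reads. *Rbp4* (1.05, 0.16 to 1.99) and *Rarres2* (1.04, 0.46 to 1.65) were higher, and the call of *Retn* rested on 1 read against 0. With Rosi, 6 adipokines were over 2-fold lower in K36M cells, against 12.6% of all genes, and *Lep*, with 1 read against 0, was the 1 counted as higher, against 28.4%. *Agt* was 45.9-fold lower, from 6901 reads in WT to 115 in K36M cells. *Adipoq* was 23.5-fold lower (-4.55, -4.88 to -4.25). *Retn* had -3.66 (-5.58 to -2.23), *Cfd* -2.99 (-4.67 to -1.68), *Rbp4* -1.95 (-2.46 to -1.47), and *Apln* -1.95 (-2.49 to -1.45). *Nampt* (-0.55, -0.65 to -0.45) and *Rarres2* (0.39, 0.10 to 0.69) were not called. All 8 adipocyte markers were over 2-fold lower in K36M cells with Rosi, with a median of -2.54, against -2.47 for the 8 adipokines with reads in both libraries and 0.03 for all genes.

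In Ctrl cells, 7 adipokines were over 2-fold higher at D2 than at D0, against 17.3% of all genes, and 0 were over 2-fold lower, against 23.4%. *Rbp4* had a log2 ratio of 5.47 (3.90 to 7.77), from 3 to 136 reads. *Adipoq* had 6.38 (3.86 to 11.70), from 1 to 85 reads. *Nampt* had 1.47 (1.35 to 1.59), *Apln* 1.58 (1.35 to 1.83), and *Retn* 3.67 (1.67 to 6.79). *Cfd* and *Lep* went from 0 to 4 and 2 reads. *Agt* (0.65, 0.49 to 0.81) and *Rarres2* (0.39, -0.48 to 1.28) were not called. In KD cells, 3 adipokines were over 2-fold higher at D2, against 16.9% of all genes, and *Retn* was the 1 that was over 2-fold lower, against 24.5%. *Agt* had 4.35 (3.33 to 5.58) and *Apln* 2.95 (2.51 to 3.43), and the call of *Rbp4* rested on 1 read. The interval of *Retn* (-1.02, -2.72 to 0.51) held 0. *Adipoq*, with 2 and 4 reads, had 0.98 (-1.82 to 4.45) in KD cells, and *Nampt* had 0.71 (0.56 to 0.87). The adipocyte markers had a median log2 ratio of 6.12 in Ctrl and 2.22 in KD cells over these days, the adipokines with reads 1.58 and 0.98, and all genes 0.00 and -0.02.

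At D0, 3 adipokines were over 2-fold lower in KD than in Ctrl cells, against 18.1% of all genes, and 3 were over 2-fold higher, against 13.5%. *Agt* was 58.5-fold lower with 8 against 531 reads, a log2 ratio of -5.87 (-7.09 to -4.88). *Apln* had -1.87 (-2.37 to -1.40). *Rbp4* was called on 0 against 3 reads, at the floor, so no fold is given. *Retn* was higher in KD cells (2.77, 0.60 to 5.97, 12 against 2 reads), and the calls of *Adipoq* and *Cfd* rested on 2 against 1 and 1 against 0 reads. At D2, 6 adipokines were over 2-fold lower in KD cells, against 18.5% of all genes, and 0 were over 2-fold higher, against 12%. *Rbp4* had 1 against 136 reads, a log2 ratio of -6.90 (-12.21 to -4.39). *Adipoq* was 18.6-fold lower (-4.22, -6.13 to -2.81). *Agt* had -2.18 (-2.43 to -1.93), *Retn* -1.93 (-3.50 to -0.61), and *Nampt* -1.09 (-1.20 to -0.97). *Lep* was called on 0 against 2 reads. *Apln* (-0.50, -0.70 to -0.31), *Rarres2* (-0.53, -1.49 to 0.39), and *Cfd* (-0.81, -4.28 to 1.99) were not called. All 8 adipocyte markers were over 2-fold lower in KD cells at D2, with a median of -4.63, against -1.51 for the 8 adipokines with reads in both libraries and -0.04 for all genes.

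**Figure D5:**
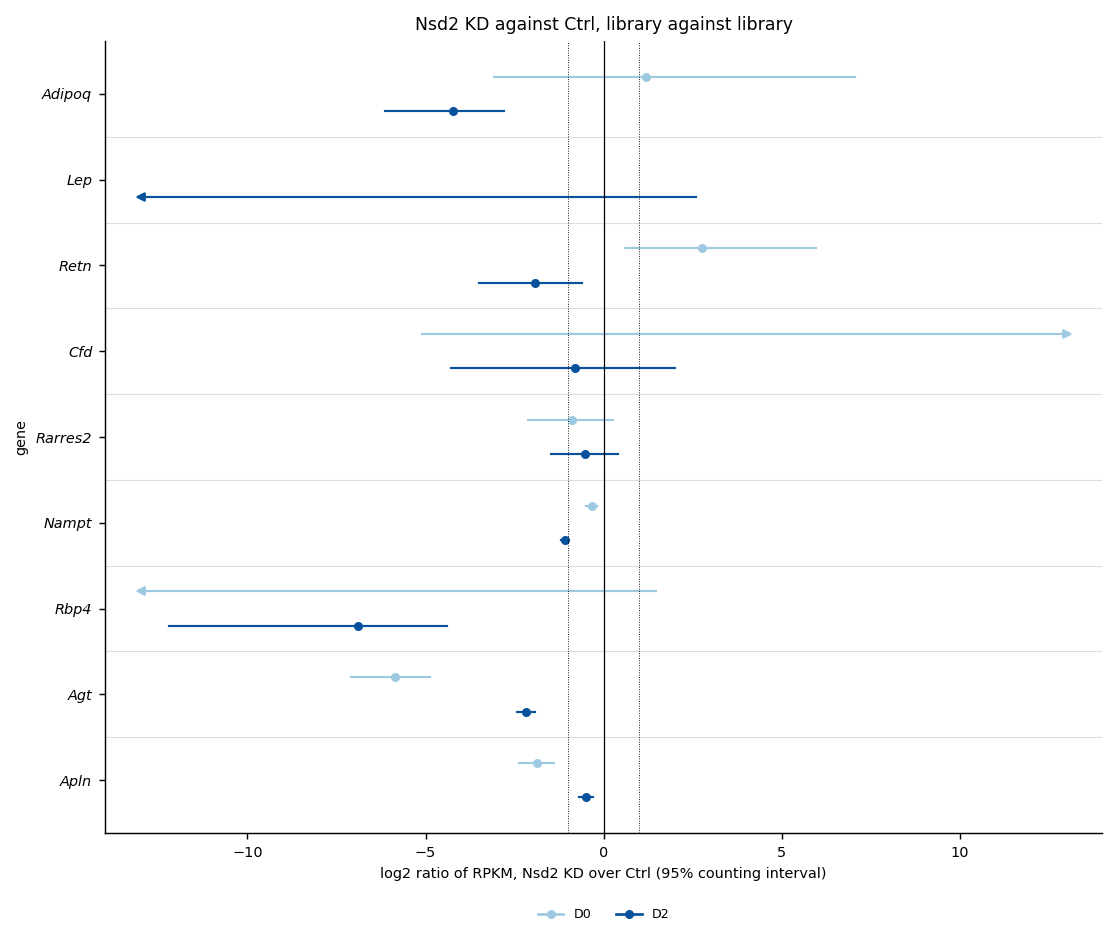
log2 ratio of RPKM, KD over Ctrl, for each adipokine at D0 and D2 (points, with lines for 95% counting intervals, arrows where a library had 0 reads, dotted lines at 2-fold). *Agt* lies left of the 2-fold line on both days, *Adipoq* and *Rbp4* do at D2 with wide intervals, and *Retn* changes side between D0 and D2.

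The 2 control populations also differed. At D0, 6 adipokines were over 2-fold lower in Ctrl than in WT cells, against 23% of all genes, and *Retn*, with 2 against 1 reads, was the 1 counted as higher, against 12%. *Nampt* had -1.78 (-1.90 to -1.67), *Agt* -1.51 (-1.66 to -1.37), and *Apln* -2.17 (-2.41 to -1.95). *Adipoq* had -5.24 (-10.58 to -2.68) and *Rbp4* -3.11 (-5.47 to -1.41). *Cfd*, with 0 reads in Ctrl cells, was at least 22.5-fold lower there against a floor of 3 reads, and *Rarres2* (-0.66, -1.51 to 0.15) was not called. At D2, 5 adipokines were over 2-fold lower in Ctrl cells, against 15.6% of all genes, and *Lep*, with 2 against 0 reads, was the 1 counted as higher, against 12.2%. *Agt* was 7.70-fold lower (-2.94, -3.05 to -2.84), *Cfd* had -2.94 (-4.90 to -1.43), *Retn* -2.58 (-3.24 to -1.97), *Apln* -1.85 (-1.99 to -1.72), and *Rarres2* -1.10 (-1.81 to -0.43). *Adipoq* (-0.85, -1.25 to -0.45), *Nampt* (-0.40, -0.48 to -0.32), and *Rbp4* (0.52, 0.12 to 0.92) were not called. All genes had a median of -0.25 at D0 and -0.13 at D2. Experiment, virus, and expressed histone differ together between these populations and cannot be told apart. GR status is unknown in both, and *Nr3c1* had 30.9 RPKM in WT and 12.7 RPKM in Ctrl cells at D0. At D2 it had 17.7 and 13.8 RPKM. At D2 the *Agt* levels of these 2 controls lay 7.70-fold apart, against 2.06-fold between WT and K36M cells. At D0 the *Agt* levels of the controls lay closer together than those of WT and K36M cells, with 41.7 RPKM in WT, 14.6 RPKM in Ctrl, and 2.88 RPKM in K36M cells. *Apln* and *Rarres2* had the same order at D0. For *Adipoq*, *Nampt*, and *Rbp4* the controls lay further apart than WT and K36M cells, and *Cfd*, *Retn*, and *Lep* had at most 2 reads in Ctrl cells.

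The genes that receive or handle adipokines were read from lists, with the log2 ratio and its interval in parentheses. Of 13 receptor genes, *Adipor2*, an adiponectin receptor, went from 16.8 to 188 RPKM between D0 and D2 of WT cells, a log2 ratio of 3.48 (3.40 to 3.56). It had 28.2 RPKM in K36M and 91.1 RPKM in WT cells at D7, a log2 ratio of -1.69 (-1.78 to -1.60). With Rosi it had 15.8 RPKM in K36M and 74.9 RPKM in WT cells, and at D2 it had 27.0 RPKM in KD and 69.9 RPKM in Ctrl cells. *Adipor2* was thus over 2-fold lower in these 3 pairs, as was *Adipoq*, the gene of its ligand. Other pairs did not match. At D2 *Adipor2* had 98.1 RPKM in K36M and 188 RPKM in WT cells, whereas *Adipoq* had 10.6 and 6.16 RPKM. At D0 *Adipor2* had 18.0 RPKM in K36M and 16.8 RPKM in WT cells, whereas *Adipoq* had 0.286 and 1.56 RPKM. *Adipor1*, the other adiponectin receptor, singled out after its values were seen, stayed between 39.4 and 63.5 RPKM in all libraries. *Agtr1a*, a receptor of angiotensin II, had 0.243 RPKM in K36M and 5.42 RPKM in WT cells at D0, and 1.80 against 8.23 RPKM with Rosi. *Agtr2*, another of its receptors, had 1.48 RPKM in K36M and 8.85 RPKM in WT cells at D7. Of the 13 receptor genes, 5 were over 2-fold higher and 4 over 2-fold lower in the K36M library at D7, with a median log2 ratio of 0.22. Of all genes, 19.7% were over 2-fold higher and 13.2% over 2-fold lower there, with a median of 0.13. Among the 7 receptor genes with at least 1 RPKM in 1 of the 2 D7 libraries, 2 were over 2-fold higher and 3 over 2-fold lower. The shares above are over genes at any level, so they are no measure for these 7.

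Among 23 listed genes that process adipokines or act with them, 20 had reads at D7, where 4 were over 2-fold higher and 3 over 2-fold lower in K36M cells, with a median of 0.18. These shares were close to the 19.7% and 13.2% of all genes. *Ero1a*, the oxidoreductase that helps release adiponectin, had 241 RPKM in WT and 66.9 RPKM in K36M cells at D2 (-1.85, -1.90 to -1.80), and 139.9 against 19.7 RPKM at D7. With Rosi the order was the opposite, 34.1 RPKM in WT and 98.7 RPKM in K36M cells. *Cfb*, the complement factor that adipsin cleaves, had 21.2 RPKM in WT and 89.3 RPKM in K36M cells at D7, a log2 ratio of 2.07 (1.96 to 2.19). At D0 it was the other way round, with 6.41 RPKM in WT and 1.73 RPKM in K36M cells, and with Rosi it had 2.14 and 0.893 RPKM. *C3*, the source of the fragment that factor B binds, had 47.9 RPKM in WT and 7.04 RPKM in K36M cells at D0 (-2.77, -2.88 to -2.65). It had 403 and 285 RPKM at D7. *Ace*, which forms angiotensin II, had 3.86 RPKM in WT and 17.7 RPKM in K36M cells at D7, the opposite order to *Agt*. *Enpep*, which degrades angiotensin II, had 5.51 and 0.409 RPKM.

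Of the 9 listed genes of the C1q/TNF family, paralogs of adiponectin, 4 were over 2-fold higher and 0 over 2-fold lower in K36M cells at D7, against 19.7% and 13.2% of all genes, and 1 of these 4 reached 1 RPKM. *C1qtnf1* and *C1qtnf6* had the reverse early course of *Adipoq* in WT cells. From D0 to D2, *C1qtnf1* went from 7.66 to 0.681 RPKM and *C1qtnf6* from 17.9 to 4.84 RPKM. At D7 *C1qtnf6* stood at 37.2 RPKM in WT and 32.9 RPKM in K36M cells, with no call. None of the 3 listed relatives of resistin exceeded 1.40 RPKM in any library.

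Of 20 other secreted factors, 19 had reads at D7, where 6 were over 2-fold higher and 2 over 2-fold lower in K36M cells, with a median of 0.60, against 19.7% and 13.2% of all genes. *Ccl2*, a monocyte chemoattractant, had 229 RPKM in WT and 1487 RPKM in K36M cells, and *Spp1*, osteopontin, 91.5 and 767 RPKM. *Cxcl12*, a chemokine of stromal cells, had 284 RPKM in WT and 12.4 RPKM in K36M cells at D0, and 463 and 85.2 RPKM at D7. *Fgf21*, a metabolic hormone, went with Rosi from 0.194 to 22.3 RPKM in WT and from 0.607 to 212 RPKM in K36M cells with PPARγ. *Angptl4*, a lipase inhibitor that PPARγ ligands induce, had 42.7 and 399.7 RPKM in WT and 56.5 and 611 RPKM in K36M cells. *Fgf21* and *Angptl4* therefore had their higher Rosi level in K36M cells, the reverse of *Adipoq* and *Agt*.

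Of 6 adipogenic transcription factors, 4 were over 2-fold lower in the K36M library at D7 and 0 over 2-fold higher, against 13.2% and 19.7% of all genes. *Cebpa*, which encodes C/EBPα, had 232 RPKM in WT and 24.4 RPKM in K36M cells (-3.25, -3.36 to -3.15). With PPARγ and Rosi, *Cebpa* had 187 RPKM in WT and 10.3 RPKM in K36M cells. Its D2 level was 4.80 RPKM with the *Nsd2* shRNA and 78.7 RPKM with the Ctrl shRNA. *Pparg* had 101 and 21.4 RPKM at D7. Of the same 6 factors, 4 were over 2-fold lower and 0 over 2-fold higher in KD than in Ctrl cells at D2, against 18.5% and 12% of all genes.

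The genes with the most similar patterns were found by Pearson's r of log2(RPKM + 0.1) over the 14 libraries among 12981 genes with at least 1 RPKM in at least 2 libraries. These r values are descriptions, since libraries of 1 experiment share cells and time points. For *Adipoq* they were *Lgals12* (0.97), *Car3* (0.95), and *A530016L24Rik* (0.95), and for *Rarres2* *Nr1h3* (0.91), *Car3* (0.88), and *Slc44a3* (0.88). For *Cfd* they were *Clec3b* (0.94), *Car3* (0.91), and *Orm1* (0.90), so *Car3* was among the nearest genes of 3 adipokines. For *Retn* they were *Tmem143* (0.96), *Acad11* (0.95), and *Fam83a* (0.95), and for *Nampt* *Mcur1* (0.96), *Gstz1* (0.95), and *Cmc1* (0.95). For *Rbp4* they were *Isoc1* (0.95), *Mpp7* (0.93), and *Tgm2* (0.93), and for *Agt* *Cachd1* (0.95), *2510009E07Rik* (0.95), and *Hp* (0.93). For *Apln* they were *Zdhhc6* (0.93), *Lrrc27* (0.93), and *Serpina3n* (0.93), and *Lep* did not reach the level limit. Among the 8 other adipokines, r was highest between *Adipoq* and *Rarres2* (0.86) and lowest between *Rarres2* and *Apln* (0.29). No adipokine was among the 3 nearest genes of another.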

How the data were processed

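RNA-Seq of 14 of the 34 samples was used, and the 20 ChIP-Seq samples were not analysed here. The deposited values are RPKM per RefSeq transcript, made by the authors, with mm9 named as the build, 1 file per library and no pooling. CASAVA 1.8.2 and SICER are named in the submitters' processing notes, and the RNA-Seq mapper and counter are not given in the sources used here. Groups came from the sample labels. Symbols were found for 28436 of 29082 transcripts, giving 23109 genes, and the transcript with the highest mean RPKM stood for its gene. RPKM steps gave whole reads for 26945 of 26946 transcripts with values above 0 in at least 2 libraries. Depths of 12213559 to 24365867 reads per library were inferred from these steps and annotated transcript lengths. With 1 library per condition, no test between conditions was made. Each of 17 comparisons gave log2 ratios of RPKM with no pseudocount and 95% Clopper-Pearson intervals from the recovered reads, and called genes over 2-fold, leaving out genes at 0 RPKM in both. A 0 was read against a floor of 3 reads. The procedure was tested on simulated data.

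The 9 adipokines, the 6 gene lists, and the markers were chosen with earlier results of these data known. Of the lists, genes were named at 5 RPKM or more in 1 of the libraries compared and over 2-fold, at most 4 per list and comparison. For some named genes, levels outside this rule were also given, such as *Cfb* with Rosi and *C3* and *C1qtnf6* at D7. The 6 alternatives were pseudocounts of 0.1 and 1, a minimum of 1 RPKM, median-ratio scaling, summed transcripts, and intervals that exclude 1. Python 3.11.15, numpy 2.4.6, pandas 2.3.3, scipy 1.17.1, and matplotlib 3.10.9 were used.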

Additional observations from a re-analysis of the deposited data

Results flagged for a closer look

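For 7 adipokines, the same contrast pointed in opposite directions in 2 populations, times, or treatments, with both counting intervals off 0 and at least 1 of the ratios over 2-fold. With 1 library per condition, none of these differences was tested, and contrasts that share a library are not independent. From D0 to D2, *Cfd* had -1.17 in WT and 3.75 in K36M cells, a difference of 4.92. From D2 to D7, *Nampt* had 1.82 in WT and -0.29 in K36M cells (difference -2.11), *Rbp4* 1.81 and -0.92 (difference -2.73), and *Agt* 0.17 and -1.88 (difference -2.05).

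Between K36M and WT cells, *Adipoq* had -2.44 at D0 and 0.79 at D2 (difference 3.23), and -3.77 at D7 (difference to D2 -4.56). *Rarres2* had -1.16 at D0 and 1.24 at D2 (difference 2.39). *Nampt* had 0.09, 0.51, and -1.60 on the 3 days, so D7 differed from D0 by -1.69 and from D2 by -2.11. *Rbp4* had 0.76 at D0 and -2.70 at D7 (difference -3.46), and, in PPARγ cells, 1.05 with DMSO and -1.95 with Rosi (difference -3.0). Between KD and Ctrl cells, *Retn* had 2.77 at D0 and -1.93 at D2 (difference -4.69), on 12 against 2 and 6 against 26 reads.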

How the results depend on the processing

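No paired analysis was possible because each condition had 1 library, and leaving out a library was not done because no comparison would remain. Of the 133 log2 ratios, none over 2-fold changed sign under an alternative. Over all alternatives, 605 recomputed ratios lay within the counting interval of the deposited ratio and 48 outside it, 38 of them with a pseudocount of 1 and 10 with median-ratio scaling. Summing transcripts moved 0 of the 34 counts of adipokines called.

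The other alternatives moved the following counts by more than 1.5 times or to 0. K36M over WT cells at D2 went from 2 higher to 1 with either pseudocount, the minimum of 1 RPKM, or the interval rule. With the same 4 settings, the 1 lower gene for Rosi in WT cells, the 1 higher gene for K36M over WT cells with Rosi, and the 1 higher gene for Ctrl over WT cells at D0 and at D2 each became 0. KD over Ctrl cells at D0 went from 3 higher to 1 with a pseudocount of 0.1, the minimum, or the interval rule, and to 0 with a pseudocount of 1. KD cells from D0 to D2 went from 1 lower to 0 with either pseudocount or the interval rule. K36M over WT cells with DMSO went from 3 higher to 1 and 0 with pseudocounts of 0.1 and 1, and from 5 lower to 3 with 1. A pseudocount of 1 also took WT cells from D0 to D2 from 1 lower to 0, K36M cells from D2 to D7 from 3 higher to 1, and K36M over WT cells at D0 from 5 lower to 3. Median-ratio scaling took K36M cells from D2 to D7 from 1 lower to 2. A further 37 recomputed counts, 2 of them under median-ratio scaling, became lower by 1 or 2 genes and stayed within 1.5 times, and the other recomputed counts did not change.

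Depth limited *Lep* throughout, *Cfd* in the shRNA libraries and in K36M cells at D0, and *Retn* at D0. It also limited *Adipoq* and *Rbp4* in KD cells and in Ctrl cells at D0. In PPARγ cells, *Retn* was so limited with DMSO and in K36M cells with Rosi, and *Cfd* was in K36M cells with DMSO or Rosi. The median shift of that scaling exceeded 0.1 on the log2 scale for K36M over WT cells at D7 (0.12) and for Ctrl over WT cells at D0 (-0.24) and D2 (-0.11).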

Other observations

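Other secreted factors differed between the libraries beside the adipokines, with the log2 ratio and its counting interval in parentheses. Of 20 listed factors, 7 were over 2-fold lower and 2 over 2-fold higher in the K36M library before induction, against 12% and 14.8% of all genes. At D0, *Il6*, the interleukin, had 28.6 RPKM in WT and 1.67 RPKM in K36M cells (-4.10, -4.63 to -3.62), and *Lcn2*, lipocalin, had 269 and 24.4 RPKM (-3.46, -3.61 to -3.32). *Fst*, the activin inhibitor follistatin, had 11.4 and 2.31 RPKM (-2.31, -2.62 to -2.01). In the other direction, *Fgf21*, singled out after its values were seen, had 9.18 RPKM in WT and 26.6 RPKM in K36M cells. At D7, *Igf1*, a growth factor, had 6.56 RPKM in WT and 0.977 RPKM in K36M cells (-2.75, -3.09 to -2.42). Of the 18 listed secreted factors with reads at D2 in the shRNA lines, 10 were over 2-fold lower and 2 over 2-fold higher with the *Nsd2* shRNA, against 18.5% and 12% of all genes. Among them, *Gdf15*, a stress-responsive cytokine, had 47.7 RPKM with the Ctrl shRNA and 4.75 RPKM with the *Nsd2* shRNA (-3.33, -3.65 to -3.02). At D2 *Cxcl12* had 19.7 and 1.51 RPKM (-3.71, -4.15 to -3.29).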
